A study of Rattus with 6 samples.

Results

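The 35 genes described here act in the repair of DNA double-strand breaks and in the signalling that such breaks set off. They were taken by symbol from a table of 21378 genes counted in rat cardiac fibroblasts with and without knockdown of Nono. Each symbol was found once, and all 35 passed the filter on low counts, so that every one of them is among the 14412 genes tested. The libraries came from 2 groups of cultured cardiac fibroblasts bought from a commercial supplier, the matrix-producing cells of the heart. In siNONO (3 libraries) the cells had been transfected with Lipofectamine and an siRNA against Nono. In siCtrl (3 libraries) the titles name a control siRNA while a further label calls it an empty vector, and which of these the control cells were given cannot be told from the labels. No time between transfection and RNA extraction is given for the sequenced cells. They do not say whether replicates were separate cultures, so the p-values reflect the spread among 3 libraries a group, which may be technical.

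A double-strand break is repaired mainly along 2 routes. In non-homologous end joining, the Ku heterodimer holds the broken ends, the kinase DNA-PKcs assembles on it, and XRCC4, XLF and DNA ligase IV seal them. In homologous recombination, the MRE11-RAD50-NBS1 complex and CtIP start to trim the ends into single strands, and BRCA1, PALB2 and BRCA2 then act on these strands, so that the break is copied from the sister chromatid in cells that have replicated their DNA. The kinases ATM and ATR and the chromatin proteins MDC1, RNF8, RNF168 and 53BP1 carry the signal and weigh on which route is taken. NONO itself, with its partner SFPQ, is known to gather at damaged DNA and to promote end joining of purified DNA, which makes the level of the end-joining genes a natural question in cells with less of it.

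Total counts were 29692746 to 33365588 in siNONO libraries and 27792357 to 32869992 in siCtrl libraries. Nono was at 69.9, 76.1 and 73.6 CPM (read counts scaled to a common library total by TMM factors) in the siNONO libraries, against 237, 233 and 247 CPM in the siCtrl libraries, so that 30.7% of the control level was left. Its paralogs rose. Sfpq averaged 224 CPM in siNONO and 174 CPM in siCtrl (log2 fold change 0.36, edgeR adjusted p = 3.45e-05). Pspc1 averaged 33.7 CPM in siNONO and 18.3 CPM in siCtrl (0.88, edgeR adjusted p = 6.35e-07). The fibroblast collagen gene Col1a1 was at 14760 ± 201 CPM in siNONO and 15860 ± 560 CPM in siCtrl (SD, n = 3 each), and all 16 listed fibroblast markers passed the filter. By the test given below, 2 of these 16 rose and 5 fell (43.8%, beside 32.1% of all genes tested). Macrophage and leukocyte markers were present as well, 14 of 16 passing the filter, and their summed level ran from 1463 to 1578 CPM in siNONO and from 1543 to 1734 CPM in siCtrl. Among these 14, 0 rose and 5 fell (35.7%). Of 7 endothelial markers tested, 1 rose and 0 fell (14.3%). The 10 pericyte and smooth muscle markers, of which 1 rose and 4 fell among 9 tested, summed to 107 to 111 CPM in siNONO and 120 to 129 CPM in siCtrl. Of the 8 cardiomyocyte markers in the table, 2 passed the filter and 1 of these fell. The 8 summed to 108 to 117 CPM in siNONO and 143 to 159 CPM in siCtrl, so that the sum rests on few genes. Myh6 and Actn2 were under 0.1 CPM on average in both groups, so that the sum comes from other markers of the list. The 2 cardiomyocyte markers tested had a median log2 fold change of -0.47. The part that cells other than fibroblasts have in the values below was not tested, and in such bulk samples fewer cells of a type cannot be told apart from less RNA per cell.

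With TMM scaling, few of the double-strand break repair genes passed the test between siNONO and siCtrl, and those that did changed by less than 1.5-fold. Of the 35, 3 rose (Xrcc4, Tp53bp1 and Parp1), 2 fell (Nhej1 and Xrcc1) and 30 did not pass the test. A gene passed where its p from edgeR's quasi-likelihood fit, Benjamini-Hochberg adjusted across the 14412 genes, was under 0.05. That is 14.3% of them, where 32.1% of all genes tested were called, 16.2% raised and 15.9% lowered. The lower share held in most other settings but not in all. It was 14.7% beside 27.7% of all genes with the DESeq2 Wald test, and 14.3% beside 26.1% with a replicate block. Leaving out 1 library in turn gave 11.4% to 14.3%, beside 23.0% to 29.9%. The difference was lost with total library size and with at least 1 FPKM in 3 libraries, and nearly gone without a filter. With total library size, 13 of the 35 (37.1%, 11 raised and 2 lowered) were called, beside 33.6% of all genes. Without a filter it was 8 of 35 (22.9%), beside 23.3% of all 21378 genes, rare ones included. A filter of at least 1 CPM in 3 libraries left 5 of 31 called (16.1%), beside 35.4%. With at least 1 FPKM in 3 libraries, 8 of the 19 left (42.1%) were called, beside 37.1%. That last setting also changed the scale and the test, to limma-trend on log2(FPKM + 1). Their log2 fold changes, siNONO minus siCtrl, ran from -0.54 to 0.44. The median was 0.09 for the 35 genes and 0.00 for all genes tested, and the median absolute log2 fold change was 0.16 and 0.15. Without adjustment 13 of the 35 (37.1%) had a p under 0.05, against 42.0% of all genes tested. The values of siNONO and siCtrl did not overlap for 14 of the 35, 11 of them higher and 3 lower in siNONO, a share of 40.0% beside 45.0% of all genes tested.

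**Figure D1:**
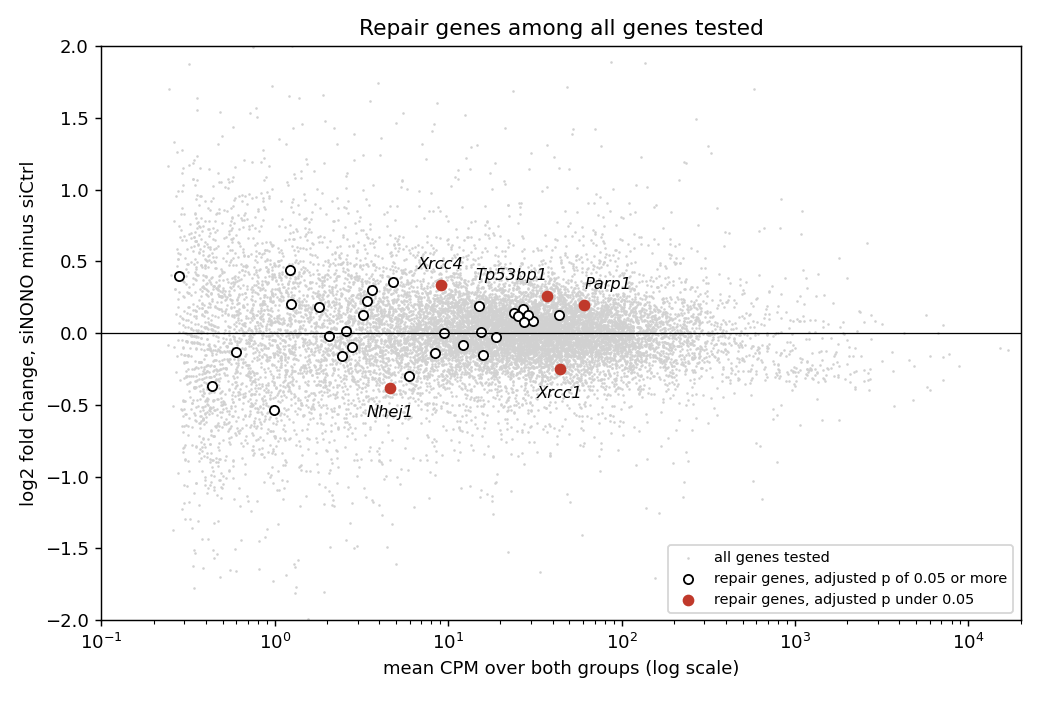
Log2 fold change (siNONO minus siCtrl, vertical axis) against mean CPM over both groups (log scale) for the genes tested, with the 35 repair genes as circles and the 5 that passed the test filled and named; 15 genes lie beyond the axes. The repair genes stay between -0.54 and 0.44.

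Level sets how small a change could be called. Of the 16 repair genes with a mean under 5 CPM, 1 was called, where 15.7% of all genes at that level were. Between 5 and 20 CPM it was 1 of 9, beside 28.4%, and from 20 CPM upwards 3 of 10, beside 43.1%. The median standard error of the log2 fold change was 0.18 in the lowest of these classes and 0.05 in the highest. For 21 of the 30 genes that did not pass, the 95% interval of the fold change lay within 1.5-fold in either direction, and for 27 within 2-fold. The remaining 3 were Fanca (0.47 to 1.00), Xrcc3 (0.48 to 1.24) and Rad54b (0.71 to 2.46), the last with 52 reads over all 6 libraries.

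The genes spanned a wide range of levels. By deposited FPKM, which is scaled by gene length and so allows genes to be compared, Xrcc1 (15.2 FPKM on average in siCtrl) and Parp1 (14.4 FPKM) came first in the siCtrl libraries, followed by Nbn (13.1), Xrcc6 (11.5), Xrcc5 (8.49), Rbbp8 (5.57) and Rad50 (5.13). In siNONO libraries the mean was 13.2 FPKM for Xrcc1 and 17.0 FPKM for Parp1, so that the order of these 2 differed between the groups. The lowest in siCtrl were Xrcc3 (0.14 FPKM), Polq (0.06) and Rad54b (0.03). The recombination genes sat low throughout, with Rad51ap1 the highest of the 9 at 1.11 FPKM in siNONO and 1.08 FPKM in siCtrl, while the Ku genes and the MRE11-RAD50-NBS1 genes were all above 3 FPKM in every library.

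**Figure D2:**
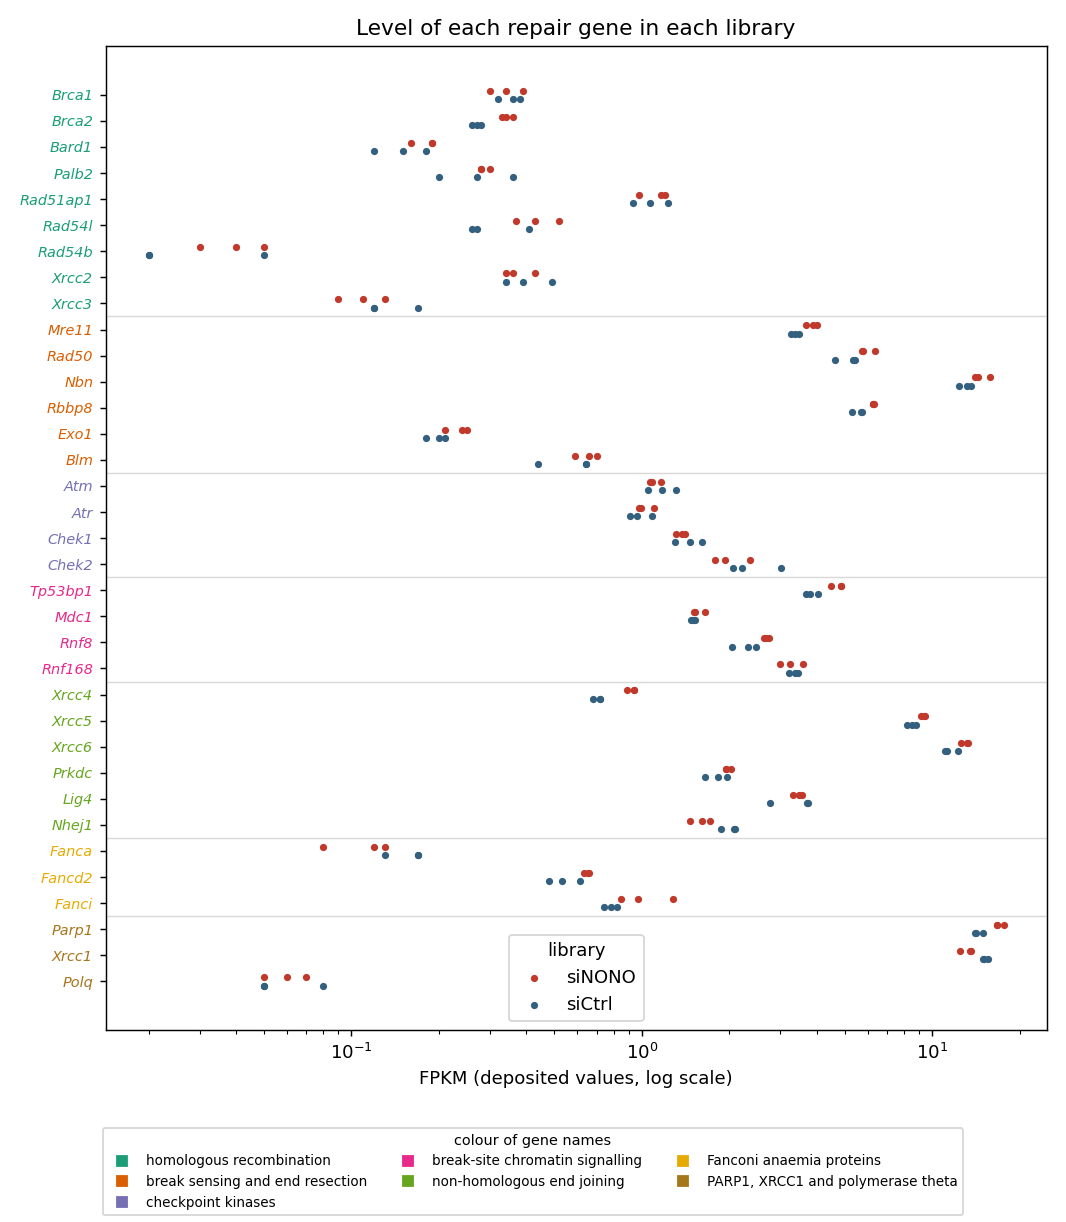
Deposited FPKM of each of the 35 repair genes in each library (log scale), siNONO libraries above siCtrl libraries on each row, with gene names coloured by role. Levels run from 0.02 FPKM in single libraries for Rad54b to 17.6 FPKM for Parp1, and the groups lie close together on most rows.

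Among the end-joining genes, 1 of 6 rose, 1 fell and 4 did not pass, a share near the 32.1% of all genes tested. The 2 that moved went in opposite directions, and their proteins are known as partners. Xrcc4 (chromosome 2), whose product bridges the ends and holds DNA ligase IV, was at 10.2, 10.3 and 9.67 CPM in the siNONO libraries, against 8.27, 8.09 and 7.66 CPM in the siCtrl libraries. Every siNONO library was above every siCtrl library, with means of 10.1 ± 0.355 CPM in siNONO and 8.004 ± 0.314 CPM in siCtrl (SD, n = 3 each). On the log2 scale the rise was 0.33 ± 0.08 (SE), with an adjusted p of 0.00643 from edgeR. Nhej1 (chromosome 9), which encodes XLF, the protein that forms filaments with XRCC4, was at 4.02, 4.30 and 3.66 CPM in siNONO, against 5.47, 5.38 and 4.82 CPM in siCtrl. Here every siNONO library lay below, and the log2 fold change was -0.38 ± 0.12 (adjusted p = 0.0231, edgeR). That call ended without siCtrl replicate 1 (adjusted p = 0.0587), siCtrl replicate 2 (0.0618), siNONO replicate 1 (0.0590) or siNONO replicate 3 (0.0902).

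The other 4 end-joining genes did not pass, and their 95% intervals lay within 1.2-fold in either direction. Xrcc5 and Xrcc6, the Ku80 and Ku70 subunits, had log2 fold changes of 0.09 ± 0.05 (adjusted p = 0.207) and 0.12 ± 0.06 (adjusted p = 0.103). Xrcc6 passed as raised with total library size (adjusted p = 0.0296) and on the FPKM scales (adjusted p 0.0285 to 0.0354). Ku80 was at 31.1, 32.2 and 32.2 CPM in siNONO, against 30.5, 30.8 and 28.8 CPM in siCtrl, a fold change of 1.06 with a 95% interval of 0.99 to 1.14. Prkdc, the catalytic subunit DNA-PKcs, averaged 28.1 ± 0.597 CPM in siNONO and 26.7 ± 1.89 CPM in siCtrl, and its 95% interval was 0.97- to 1.15-fold. Lig4, the ligase itself, averaged 18.7 ± 0.555 CPM in siNONO and 18.9 ± 2.84 CPM in siCtrl. Its low siCtrl library, replicate 1 at 15.7 CPM, lay below all others while the remaining siCtrl libraries, at 20.5 and 20.7 CPM, lay above every siNONO library.

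PARP1 and XRCC1, which meet at single-strand breaks and in the backup form of end joining, also moved apart. Parp1 (chromosome 13), the enzyme that senses strand breaks and marks them with poly(ADP-ribose), was at 67.2, 64.7 and 63.6 CPM in siNONO, against 56.9, 58.6 and 55.5 CPM in siCtrl. The groups did not overlap, and the log2 fold change was 0.19 ± 0.04 (edgeR adjusted p = 0.00426), a rise of 14.4%. Xrcc1 (chromosome 1), the scaffold that binds poly(ADP-ribose) and brings DNA ligase III, was at 40.9, 42.0 and 38.1 CPM in siNONO, against 48.5, 48.6 and 47.2 CPM in siCtrl. It fell by 0.25 ± 0.05 on the log2 scale (edgeR adjusted p = 0.00131), to 83.9% of the control level, again without overlap. Polq, the polymerase of theta-mediated end joining, was close to the limit of measurement at 0.574 ± 0.106 CPM in siNONO and 0.629 ± 0.157 CPM in siCtrl, and a change of up to 1.42-fold upwards or to 0.59 of the control level lies within its 95% interval.

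Ratios of partner genes within a library do not depend on how libraries are scaled. Of 10 pairs of partners, 3 had ratios that did not overlap between the groups, a choice of pairs made after the values of the single genes were seen. For Xrcc4 with Nhej1 and Parp1 with Xrcc1, the single genes had already moved apart without overlap. The non-overlap of these ratios and their permutation p below follow from that and add no separate evidence. For Tp53bp1 with Mdc1, the single log2 fold changes were 0.26 and 0.01, so that this ratio largely restates the rise of Tp53bp1. The share of non-overlapping ratios among other pairs of genes was not taken. For each Nhej1 read there were 2.55, 2.40 and 2.64 Xrcc4 reads in the siNONO libraries, against 1.51, 1.50 and 1.59 in the siCtrl libraries, a difference of 0.72 on the log2 scale. Parp1 reads per Xrcc1 read were 1.64, 1.54 and 1.67 in siNONO, against 1.17, 1.21 and 1.18 in siCtrl, a log2 difference of 0.45. Tp53bp1 reads per Mdc1 read were 2.53, 2.54 and 2.76 in siNONO and 2.10, 2.29 and 2.20 in siCtrl, a log2 difference of 0.25. For each of these 3 pairs the exact two-sided permutation p was 0.1, the smallest that 3 against 3 libraries can give, and 0.333 after Benjamini-Hochberg adjustment over the 10 pairs. The ratio of Ku80 to Ku70 reads was 1.07, 1.05 and 1.05 in siNONO and 1.13, 1.16 and 0.98 in siCtrl, which overlapped (exact permutation p = 0.6). So did the ratios of Mre11 to Rad50 (log2 difference -0.03; exact permutation p = 0.8) and of Fancd2 to Fanci (-0.11; exact permutation p = 0.6).

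**Figure D3:**
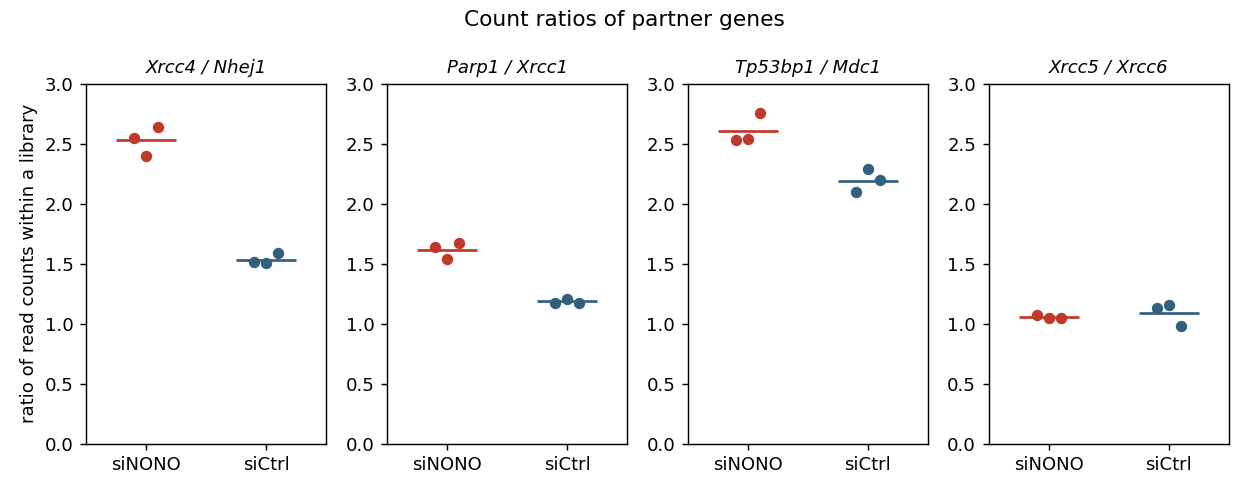
Ratio of the read counts of 2 partner genes in each library (points) with the geometric mean of each group (lines), siNONO left of siCtrl, n = 3 libraries each. The ratios of Xrcc4 to Nhej1, Parp1 to Xrcc1 and Tp53bp1 to Mdc1 do not overlap between the groups, while that of Xrcc5 to Xrcc6 does.

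Of the 4 genes that signal on chromatin around a break, Tp53bp1 rose and 3 did not pass. Tp53bp1 (chromosome 3) encodes 53BP1, which shields ends from trimming and so favours end joining. It was at 41.4, 38.6 and 41.4 CPM in the siNONO libraries, against 33.03, 35.3 and 33.4 CPM in the siCtrl libraries, without overlap. It rose by 19.4%, or 0.26 ± 0.05 in log2 units (adjusted p = 0.00142, edgeR). In the RefSeq annotation of another rat assembly, GRCr8, this gene overlaps Map1a, which encodes a microtubule-associated protein and rose by a similar amount (0.24; edgeR adjusted p = 0.00122). Tp53bp1 also overlaps Tubgcp4, which did not pass (-0.06, edgeR adjusted p = 0.501). Whether the counting used strand is not given in the sources used here, so the share of reads that belongs to each of these genes is uncertain. In all, 12 of the 35 overlap another counted gene in GRCr8, with the same doubt. Mre11 overlaps Ankrd49, whose log2 fold change was 0.13 (edgeR adjusted p = 0.0945). The rare genes Rad54l and Xrcc3 overlap Lrrc41 (86.3 CPM in siNONO, 81.6 CPM in siCtrl) and Klc1 (107 and 104 CPM). Fanca, also rare, overlaps Zfp276 (10.4 CPM in siNONO, 9.35 CPM in siCtrl). Rnf8, a ubiquitin ligase that acts upstream of 53BP1, was higher in every siNONO library (15.7, 16.5 and 15.97 CPM) than in any siCtrl library (12.9, 15.1 and 14.3 CPM). Rnf8 did not pass (0.19 ± 0.07, edgeR adjusted p = 0.0607). It passed without siCtrl replicate 2 (adjusted p = 0.0354) and with total library size (adjusted p = 0.0266). Mdc1, the adaptor that binds phosphorylated H2AX, and Rnf168, the ligase that writes the ubiquitin mark 53BP1 reads, had log2 fold changes of 0.01 ± 0.07 and -0.09 ± 0.08.

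All 6 genes of break sensing and end trimming had positive log2 fold changes, between 0.12 and 0.20, and none passed the test. Leaving out siCtrl replicate 1 turned Blm to -0.02, and leaving out siNONO replicate 3 took Nbn to 0.07. Mre11, the nuclease of the complex, was at 26.1, 24.1 and 25.2 CPM in siNONO, against 23.1, 21.7 and 23.5 CPM in siCtrl. Rad50, its ATPase, was at 27.5, 28.02 and 30.6 CPM in siNONO, against 23.4, 26.7 and 26.6 CPM in siCtrl. Nbn, which links the complex to ATM, was at 43.1, 44.5 and 48.6 CPM in siNONO, against 42.8, 42.9 and 39.2 CPM in siCtrl. For these 3 genes and for Rbbp8, which encodes CtIP, no siNONO library was below any siCtrl library, as for 45.0% of all genes tested in one direction or the other, with fold changes of 1.10 (Mre11), 1.12 (Rad50), 1.09 (Nbn) and 1.09 (Rbbp8). The adjusted p from edgeR was 0.0723 for Mre11, 0.0604 for Rad50, 0.0992 for Nbn and 0.0893 for Rbbp8. All 4 passed with scaling by total library size, under which the median log2 fold change of all genes tested was 0.05, 65.5% of all calls were rises (50.5% with TMM) and 22.0% of all genes were raised. Exo1 and Blm, a nuclease and a helicase that lengthen the single strands, were at 1.33 ± 0.131 and 3.39 ± 0.253 CPM in siNONO and at 1.16 ± 0.108 and 3.10 ± 0.586 CPM in siCtrl, with overlap in both.

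**Figure D4:**
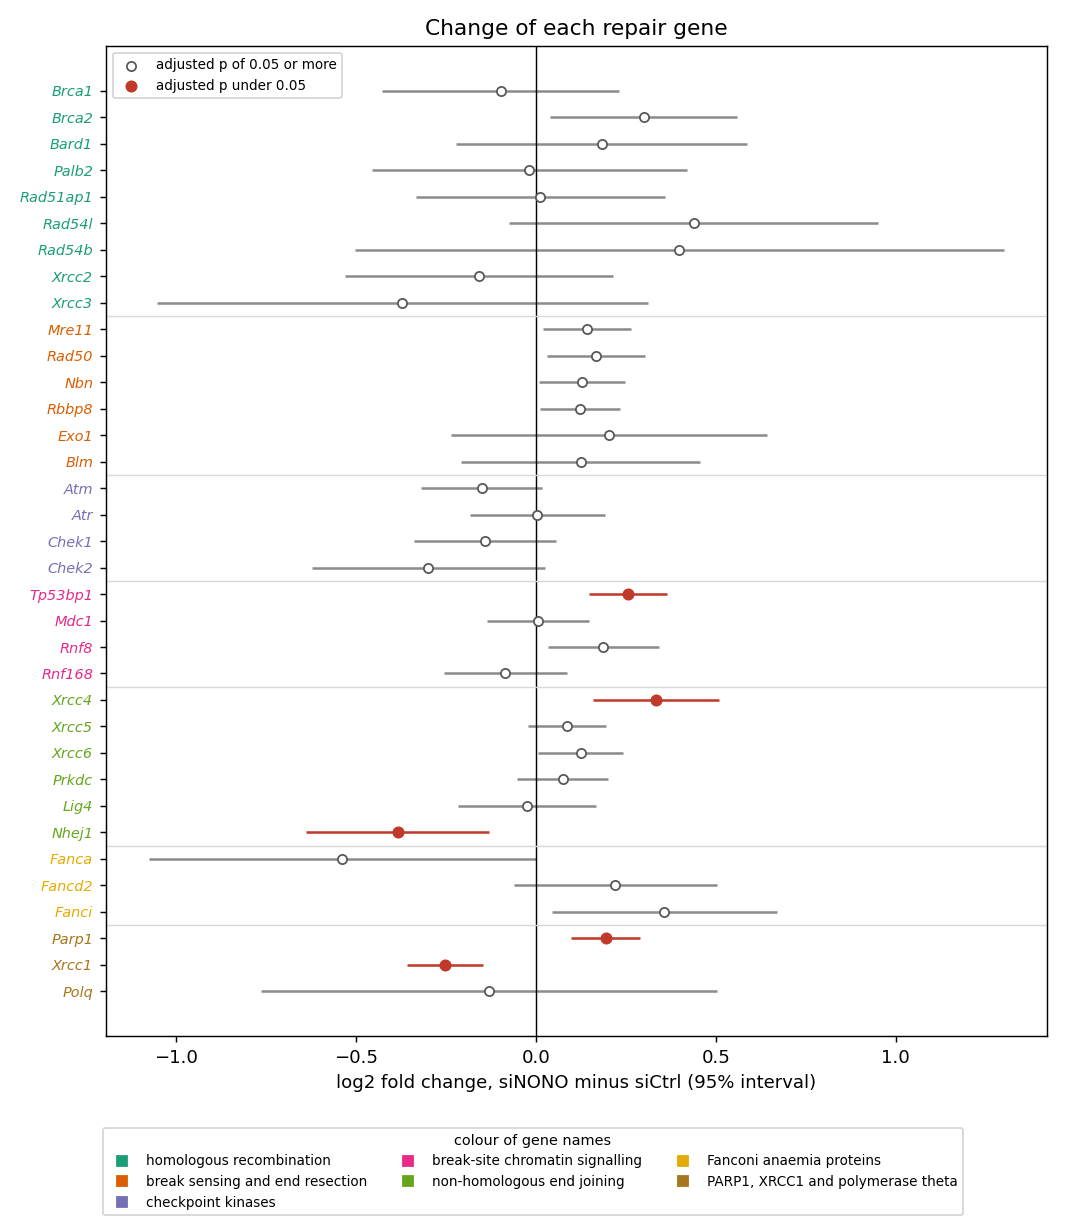
Log2 fold change (siNONO minus siCtrl) of each of the 35 repair genes with its 95% interval, filled where the edgeR adjusted p was under 0.05, with gene names coloured by role. Intervals are narrow for abundant genes such as Parp1 and Nbn and wide for rare ones such as Rad54b, Xrcc3 and Fanca.

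None of the 9 recombination genes passed the test, and all 9 averaged under 5 CPM in both groups, a level at which 15.7% of all genes were called. Brca1 (chromosome 10) was at 2.70, 3.07 and 2.32 CPM in the siNONO libraries, against 2.64, 2.92 and 3.06 CPM in the siCtrl libraries. The groups overlapped, and the 95% interval of the fold change was 0.74 to 1.18. Bard1, which forms a ubiquitin ligase with BRCA1, averaged 1.93 ± 0.182 CPM in siNONO and 1.69 ± 0.303 CPM in siCtrl. Brca2 (chromosome 12), which works on the trimmed single strands, was the one recombination gene without overlap: it was at 3.95, 3.94 and 4.22 CPM in siNONO, against 3.24, 3.20 and 3.40 CPM in siCtrl (0.30 ± 0.12; edgeR adjusted p = 0.0758). It passed with total library size (adjusted p = 0.0408). Palb2, the bridge between BRCA1 and BRCA2, averaged 2.04 ± 0.106 CPM in siNONO and 2.05 ± 0.602 CPM in siCtrl, where replicate 3 was highest at 2.69 CPM and replicate 1 lowest at 1.49 CPM.

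The other 5 recombination genes were rare and none passed. Rad51ap1, which stimulates the pairing of strands, averaged 2.59 ± 0.277 CPM in siNONO and 2.58 ± 0.349 CPM in siCtrl, and Xrcc2, which acts in recombination, averaged 2.32 ± 0.282 CPM in siNONO and 2.59 ± 0.461 CPM in siCtrl. Rad54l, a motor protein that moves along DNA, had the largest positive log2 fold change of the 35 genes at 0.44 ± 0.24. Its libraries, at 1.65, 1.38 and 1.17 CPM in siNONO and 0.894, 1.34 and 0.864 CPM in siCtrl, overlapped, and it did not pass (edgeR adjusted p = 0.181). Its relative Rad54b and the recombination gene Xrcc3 were under 0.5 CPM on average in both groups.

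The 4 checkpoint kinase genes did not pass, and their log2 fold changes ran from -0.30 (Chek2) to 0.00 (Atr). Atm, the kinase that answers double-strand breaks, was at 15.9, 14.8 and 14.9 CPM in siNONO, against 15.3, 16.4 and 18.7 CPM in siCtrl (-0.15 ± 0.08; edgeR adjusted p = 0.160). It passed as lowered without siCtrl replicate 1 (-0.21; adjusted p = 0.0450) and was at -0.06 without siCtrl replicate 3 (adjusted p = 0.590). Atr, which answers single-stranded DNA, averaged 9.44 ± 0.547 CPM in siNONO and 9.41 ± 0.728 CPM in siCtrl. Chek1, the kinase downstream of ATR, averaged 7.96 ± 0.325 CPM in siNONO and 8.77 ± 0.818 CPM in siCtrl. Chek2, downstream of ATM, was at 4.67, 5.12 and 6.18 CPM in siNONO, against 8.30, 5.52 and 5.99 CPM in siCtrl, where replicate 1 stood above the others (-0.30 ± 0.15; edgeR adjusted p = 0.149). Without that library the log2 fold change was -0.11 (adjusted p = 0.579), and without a filter on low counts Chek2 passed as lowered (adjusted p = 0.0371). Summed over the 4 kinases, the level was 37.2 to 38.8 CPM in siNONO and 40.4 to 42.5 CPM in siCtrl. These sums did not overlap, though each of the 4 genes overlapped by itself. The siCtrl sums include the high Chek2 value of replicate 1 and the high Atm value of replicate 3. Among all genes tested, 45.0% of single genes did not overlap. The 6 sensing and trimming genes, summed in the same way, were at 128 to 136 CPM in siNONO and 117 to 121 CPM in siCtrl, and all 35 genes together at 505 to 513 CPM in siNONO and 471 to 495 CPM in siCtrl. Abundant genes weigh most in such sums, as Parp1 (65.2 CPM in siNONO, 57.0 CPM in siCtrl) does in the last. Of the 35 genes, 22 had a positive and 13 a negative log2 fold change.

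The 3 Fanconi anaemia genes, whose proteins act in the repair of crosslinked strands and protect stalled forks, did not pass and did not point one way. Fanca, part of the core ubiquitin ligase, had the most negative log2 fold change of the 35 genes, -0.54 ± 0.25, at 0.559, 0.963 and 0.879 CPM in siNONO, against 1.01, 1.23 and 1.27 CPM in siCtrl (edgeR adjusted p = 0.119). Fancd2 and Fanci form the clamp that this ligase modifies. Fancd2 was at 3.55, 3.73 and 3.75 CPM in siNONO, against 2.87, 3.52 and 3.09 CPM in siCtrl, without overlap (0.22 ± 0.13; adjusted p = 0.221). Fanci was at 4.44, 5.09 and 6.65 CPM in siNONO, against 4.06, 4.15 and 4.44 CPM in siCtrl, with the high siNONO value in replicate 3 (0.36 ± 0.15; adjusted p = 0.0762). It passed without siNONO replicate 1 (0.47; adjusted p = 0.0308) and with total library size (adjusted p = 0.0462), and was at 0.17 without siNONO replicate 3 (adjusted p = 0.384). In GRCr8 Fanci overlaps Polg, which fell (-0.32, edgeR adjusted p = 0.000499).

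Of 133 tested genes in 4 lists of other recombination, end-joining, Fanconi and damage signalling genes, 13 rose and 9 fell, 16.5% in all beside 32.1% of all genes tested, with a median log2 fold change of 0.04. Among other recombination genes, 4 of 32 rose and 2 fell; 2 rose without siNONO replicate 1 or 2, and 4 fell without siNONO replicate 2. Rpa1, the large subunit of the protein that coats single-stranded DNA, was at 24.2 ± 0.221 CPM in siNONO and 31.4 ± 1.88 CPM in siCtrl (-0.38 ± 0.06; edgeR adjusted p = 0.000152). The helicase gene Rtel1 fell (-0.26 ± 0.06), and the helicase genes Wrn (0.33 ± 0.06) and Brip1 (0.54 ± 0.19) rose, Brip1 losing its call without any 1 library other than siCtrl replicate 2 (adjusted p up to 0.152). Among other end-joining genes, 3 of 23 rose and 3 fell. There was 1 rise without siCtrl replicate 3, siNONO replicate 1 or siNONO replicate 3, and 1 fall without siCtrl replicate 2, siCtrl replicate 3 or siNONO replicate 2. Dclre1c, which encodes the end-trimming nuclease Artemis, rose to 23.4 ± 2.01 CPM in siNONO, against 18.6 ± 1.55 CPM in siCtrl (0.33 ± 0.08; adjusted p = 0.00511). Aptx (0.20 ± 0.06) rose, and Setmar (-0.39 ± 0.13) and Dynll1 (-0.20 ± 0.04) fell; Aptx lost its call without 4 of the 6 single libraries and Setmar without 5 of them.

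Of 23 other Fanconi and crosslink genes, 1 rose (Wdr48, 0.15 ± 0.04) and 2 fell (Faap100, -0.39 ± 0.10, and Dclre1b, -0.25 ± 0.07). Wdr48 and Dclre1b each lost the call without siCtrl replicate 3, siNONO replicate 1 or siNONO replicate 3 (adjusted p up to 0.0691 for Wdr48 and 0.0879 for Dclre1b), while 4 genes of the list fell without siCtrl replicate 1. Of 55 other damage signalling genes, 5 rose and 2 fell, with 11 raised under total library size and 3 raised without siNONO replicate 3. H2ax, the histone whose phosphorylation marks a break, was at 30.4, 30.2 and 29.8 CPM in siNONO, against 24.2, 24.5 and 22.0 CPM in siCtrl (0.35 ± 0.06; edgeR adjusted p = 0.000272). Cdc25c, a phosphatase that starts mitosis, rose (0.35 ± 0.10) but not without siNONO replicate 3 (adjusted p = 0.0948). Wrap53 (-0.39 ± 0.09) and Telo2 (-0.19 ± 0.06) fell, Telo2 losing its call without siCtrl replicate 1, siNONO replicate 1 or siNONO replicate 3.

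Genes that p53 switches on after damage moved in both directions, 6 raised and 10 lowered of 26 (61.5%, beside 32.1% of all genes tested), with 5 lowered under total library size, with log2(FPKM + 1) or without siNONO replicate 1, and 6 lowered without siNONO replicate 3. Cdkn1a, which encodes the cell cycle inhibitor p21 and was chosen after its values were seen, was at 243 ± 8.23 CPM in siNONO and 275 ± 14.2 CPM in siCtrl (-0.18 ± 0.05; edgeR adjusted p = 0.00995). Tp53inp1 (-0.73 ± 0.04) and Gadd45a (-0.51 ± 0.05) fell most, and Rrm2b, a ribonucleotide reductase subunit (0.78 ± 0.08), and the kinase gene Plk3 (0.51 ± 0.07) rose most.

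Many recombination genes are known to rise and fall with cell division. Of 36 markers of G2 and M phase, 18 (50.0%) rose and 0 fell, beside 16.2% of all genes raised, with a median log2 fold change of 0.28 and a summed level of 327 to 362 CPM in siNONO and 280 to 307 CPM in siCtrl; 11 rose without siCtrl replicate 3 and 7 without siNONO replicate 3. Nek2 (0.78 ± 0.17) and Cenpa (0.65 ± 0.13) rose most. Of 37 S phase markers, 7 (18.9%) rose and 1 fell, a share of rises near that of all genes, and 14 had a negative log2 fold change, with a median of 0.16 and sums of 422 to 429 CPM in siNONO and 396 to 404 CPM in siCtrl. Dtl (0.72 ± 0.19) and Mcm10 (0.49 ± 0.16) rose most, losing the call without siNONO replicate 1 (Dtl, adjusted p = 0.0628) and without 4 of the 6 single libraries (Mcm10), and Tyms (-0.22 ± 0.06) fell. The 9 recombination genes summed to 17.5 to 17.8 CPM in siNONO and 15.4 to 17.8 CPM in siCtrl, which overlapped, and the part of cell division in the values of the repair genes was not tested.

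**Figure D5:**
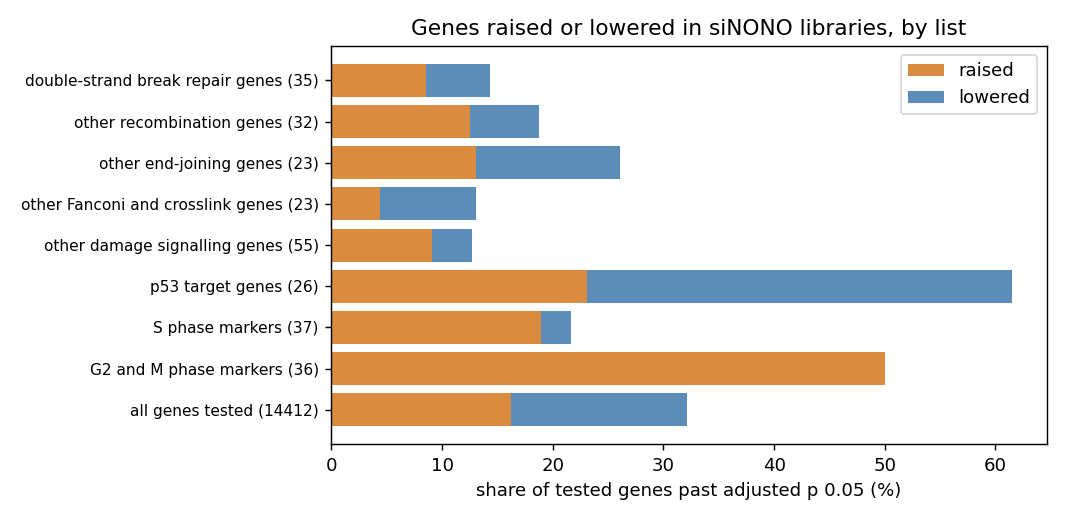
Share of tested genes in each list that were raised or lowered in siNONO libraries by edgeR's quasi-likelihood test (stacked bars, percent; number of tested genes in brackets). The 35 double-strand break repair genes reach 14.3%, all genes tested 32.1%, and G2 and M phase markers 50.0%, all of them raised.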

How the data were processed

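RNA was sequenced from 3 siNONO and 3 siCtrl libraries, made with poly(A) selection and a stranded kit per the labels' protocols and grouped by their titles. The submitters' processing notes name HISAT2, edgeR and build mRatBN7.2; their versions, what counted the reads and whether strand was used: not given in the sources used here. The authors deposited whole-number read counts per gene (21378 genes) and FPKM (21081 genes), which the authors normalised for length and depth. There were 0 columns of other samples. A count of 0 would allow up to 3 counts, 0.0899 to 0.108 CPM, for counting error only.

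Counts were filtered (filterByExpr), TMM-scaled and tested across all 14412 genes with edgeR 4.0.16 (estimateDisp, glmQLFit, glmQLFTest; R 4.3.3, limma 3.58.1), two-sided, with Benjamini-Hochberg adjustment over all genes tested and a call at 0.05. SE was taken as |log2 fold change|/√F, and the 95% intervals used it with the fit's total degrees of freedom. Lists are described by counts and medians. Ratios were compared by exact permutation. Gene lengths, for the length correction, were recovered from counts and FPKM of at least 0.1 (98.2% of genes tested). Alternatives were other scalings, filters, tests (DESeq2 1.42.0, limma-voom, robust fit), a replicate block, a gene length correction, limma-trend on log2(FPKM + 1) or log2(FPKM + 0.1), a stricter call at 0.01 and dropping each library in turn. Files give chromosomes but no positions, and GRCr8 was used only for which genes overlap. Named genes were the 35, Nono, Sfpq and Pspc1. From each further list came up to 2 of the largest rises and 2 of the largest falls past the threshold. Cdkn1a, Col1a1, Myh6, Actn2 and the genes that overlap one of the 35 lie outside that rule. The 35 genes and all lists were chosen with earlier results of these data known. Figures used matplotlib 3.10.9.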

Additional observations from a re-analysis of the deposited data

How the results depend on the processing

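Parp1, Tp53bp1 and Xrcc1 kept their calls and direction in all 21 alternatives, and Xrcc4 in the 20 that tested it. The number of the 35 repair genes raised, 3 with TMM, was 11 (31.4%, beside 22.0% of all genes) with total library size, 5 (14.3%, beside 2564 of 21378 genes) with no filter, 5 (14.3%, beside 19.6%) with log2(FPKM + 1), 5 with log2(FPKM + 0.1) (the same shares) and 6 of 19 tested (31.6%, beside 24.2%) with at least 1 FPKM in 3 libraries; leaving out 1 library gave 3 to 4. The number lowered, 2, was 3 with no filter (beside 2407 of 21378 genes), 1 with a threshold of 0.01 and 1 to 2 without 1 library. All genes called fell to 2852 with a threshold of 0.01. The replicate numbers did not pair the libraries (correlation of deviations for equal numbers -0.047, -0.086 and -0.007), and the replicate block left 3 of the 35 raised and 2 lowered, with 1894 rises and 1863 falls over all genes. Genes near 0, none of them called, changed sign. Atr (0.0034) was -0.0009 with DESeq2 size factors, -0.0004 with the DESeq2 Wald test, -0.0092 with upper-quartile factors, -0.030 with a gene length correction, -0.0307 with that and the replicate block, and -0.0459 to 0.0669 without 1 library. Mdc1 (0.0059) was -0.0066, -0.0274 and -0.0287 with upper-quartile factors, the length correction and the length correction with the block, and -0.0357 to 0.0279 without 1 library. Palb2 (-0.0191) was 0.0309 with total library size, 0.0125 with limma-voom, 0.0003 with the replicate block, 0.0131 and 0.0593 with log2(FPKM + 1) and log2(FPKM + 0.1), and -0.195 to 0.238 without 1 library. Lig4 (-0.0257) was 0.0246 with total library size, 0.0271 and 0.0367 with the same FPKM scales, 0.0271 with at least 1 FPKM in 3 libraries, and -0.141 to 0.0448 without 1 library. Polq was 0.0001 and 0.0035 on these FPKM scales and -0.237 to 0.0861 without 1 library, and Rad51ap1 was -0.0003 with upper-quartile factors and -0.0924 to 0.111 without 1 library. Without 1 library, Brca1 ran from -0.209 to 0.0017 and Blm from -0.0163 to 0.215. Leaving out 1 library, an alternative chosen for the ratios after seeing the data, moved the log2 ratio difference of Xrcc5 to Xrcc6 between -0.114 and 0.0031, of Mre11 to Rad50 between -0.0897 and 0.046, of Nbn to Rad50 between -0.116 and 0.0381 and of Fancd2 to Fanci between -0.2145 and 0.0378. The causes were not tested.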
